A study of Mus musculus with 12 samples.

Results

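Autotaxin, encoded by Enpp2, is a secreted lysophospholipase D that cleaves lysophosphatidylcholine to lysophosphatidic acid (LPA), a lipid mediator. LPA acts on the G protein-coupled receptors encoded by Lpar1, Lpar2, Lpar3, Lpar4, Lpar5 and Lpar6, and lipid phosphate phosphatases at the cell surface, encoded by Plpp1, Plpp2 and Plpp3, dephosphorylate it. The axis is known for its part in fibroblast migration, wound repair and tissue fibrosis, and autotaxin is also made by adipose tissue and by hepatocytes. The genes described here are 9 of these (Enpp2, Lpar1, Lpar2, Lpar3, Lpar4, Lpar6, Plpp1, Plpp2 and Plpp3) of 55487 genes counted. They were chosen by name on their CPM levels across the 4 groups of the study, so these levels and the medium responses drawn from them are given as a description, with no p-value.

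RNA-seq was performed on 2 mouse cell types, each grown for 4 days in medium that immortalised mouse embryonic fibroblasts (MEFs) had conditioned for 48 h. Control medium came from control donors. Ferroptotic medium came from donors in which Bach1 had been re-expressed, which the labels call ferroptotic, the term for death by iron-dependent lipid peroxidation. The recipients were Hepa1, a wild-type mouse hepatoma cell line, and primary MEFs labelled Bach1 knockout (Bach1-/-), with 3 libraries per cell type and medium. All 4 groups received medium with 10% fetal bovine serum, 0.1 mM 2-mercaptoethanol (2-ME) and 0.4 mg/mL vitamin E, renewed daily. Cell type and Bach1 genotype cannot be told apart here, and what the donor cells released was not measured. The labels do not say whether replicates were separate cultures, so the error terms measure the spread between libraries, which may be technical. In bulk RNA, fewer cells of a type and less RNA per cell cannot be told apart.

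The libraries held 18.58 to 23.4 M reads on genes, so that 3 reads, taken here as the lower limit of a single library, correspond to 0.128 to 0.161 counts per M counts on genes (CPM). Bach1 itself was counted at 116 to 147 CPM in Hepa1 libraries and at 72.1 to 82.1 CPM in the MEF libraries. Counts over the whole gene do not show which part was deleted, so they do not check the genotype. The summed level of 8 fibroblast markers was 23100 to 25100 CPM in MEFs, mostly Col1a2 and Col3a1, and 398 to 510 CPM in Hepa1. Most of the Hepa1 sum was the marker Dcn, which went the other way, at 289 and 334 CPM in control and ferroptotic Hepa1 against 3.66 and 13.2 CPM in MEFs. Of 8 hepatocyte markers, Apoa1, Ttr and Serpina1a had 0 reads in every Hepa1 library. Over the control and ferroptotic Hepa1 libraries, Hnf4a had 1 and 0 reads, Apoh 4 and 0, and Fgb 18 and 4. Apoh had more reads in MEFs (15 and 18). The summed level of the 8 markers was 89.2 to 96.1 CPM in control and 368 to 393 CPM in ferroptotic Hepa1. Alb (means of 33.6 and 311 CPM) made up nearly all of the difference. Hepa1 ferroptotic replicate 3 stood apart: it held 368 reads of the collagen gene Col1a2 against 23 and 19 in the other replicates, 0.128% of the Col1a2 level of MEFs in the same medium.

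Of the 9 genes, 7 had a promoter in the RefSeq table of build GRCm38.p6. The sequence before the gene start is shown for Lpar2 and Plpp3, whose levels moved in opposite directions in the 2 cell types, and for Lpar4, which was read almost only in MEFs. Capitals mark matches, on either strand, to 3 motifs: TGACNNNGC (the core of antioxidant response elements), TGANTCA (the AP-1 motif) and TATAAA. Each line reads 5′ to 3′ on the gene's own strand, which is the plus strand for these genes.
Lpar2, chr8:69822315-69822428 (+): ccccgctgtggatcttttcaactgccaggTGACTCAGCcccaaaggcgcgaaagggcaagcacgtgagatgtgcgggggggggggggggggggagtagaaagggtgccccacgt
Plpp3, chr4:105157097-105157346 (+): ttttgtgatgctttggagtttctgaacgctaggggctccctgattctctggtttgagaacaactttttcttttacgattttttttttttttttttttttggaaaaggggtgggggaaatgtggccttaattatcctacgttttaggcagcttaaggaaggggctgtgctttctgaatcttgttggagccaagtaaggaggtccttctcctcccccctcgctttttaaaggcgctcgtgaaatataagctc
Lpar4, chrX:106920375-106920624 (+): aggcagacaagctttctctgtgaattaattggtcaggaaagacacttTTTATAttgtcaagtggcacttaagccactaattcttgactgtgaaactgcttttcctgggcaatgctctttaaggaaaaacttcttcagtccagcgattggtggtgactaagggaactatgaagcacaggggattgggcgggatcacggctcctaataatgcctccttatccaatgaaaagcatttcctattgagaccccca

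Lpar2 held TGACTCAGC, which begins 221 bases before its RefSeq start and matches both TGACNNNGC and TGANTCA with overlapping letters. The printed Lpar2 line ends at the GENCODE gene start, which lies before the RefSeq start, so it holds 114 bases of the 250-base window. Among 32851 promoter windows of 250 bases, 10.2% held TGACNNNGC and 6.75% held TGANTCA. The windows of the other 6 matched genes held neither. Lpar4 held TTTATA, the reverse complement of TATAAA, starting 203 bases before its start, and 12.4% of all windows held that motif. The whole 250-base windows of Lpar4, Plpp3 and Lpar2 contained 3, 6 and 11 CG dinucleotides, against a median of 6 over all windows. These matches are letters in a sequence and show no binding.

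Enpp2 (ENSMUSG00000022425; GRCm38 chromosome 15, 54838901 to 54952892, minus strand) had the largest response of the 9 genes to ferroptotic medium in Hepa1 and in MEFs. In Hepa1 its level was 1.98, 1.20 and 1.44 CPM in the 3 control libraries and 10.7, 11.4 and 9.77 CPM in the 3 ferroptotic libraries. The lowest ferroptotic library was well above the highest control library. In MEFs the control libraries gave 0.989, 0.839 and 0.429 CPM and the ferroptotic libraries 4.07, 4.62 and 4.74 CPM, again with no overlap. These levels rest on few reads, 24 to 39 per library in control Hepa1 and 9 to 21 in control MEFs. Enpp2 shares 6.0% of its exon bases with Gm26684 on the other strand. With no strand setting stated, reads there cannot be assigned.

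The log2 change of Enpp2, ferroptotic against control medium, was 2.73 in Hepa1 (SE 0.148, 95% interval 2.43 to 3.04) and 2.49 in MEFs (SE 0.201, 95% interval 2.09 to 2.90). The ratio of summed reads, scaled to library totals, was 6.88 in Hepa1 and 5.94 in MEFs, with exact counting intervals of 5.51 to 8.67 and 4.38 to 8.21. The difference between the cell types, MEF minus Hepa1, was -0.24 (95% interval -0.85 to 0.37). It is given as a description and was not tested. Of 13169 genes measured in Hepa1, 61 had a larger log2 change, and of 14441 in MEFs, 80 had a larger one.

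The level of Enpp2 was higher in Hepa1 than in MEFs, by 2.04 times in control and 2.36 times in ferroptotic medium as plain CPM. With the trimmed mean of M-values (TMM) scaling over all 12 libraries those ratios were 1.39 and 1.63, and in control medium the libraries of the cell types then overlapped. Fabp4, a marker of adipocytes, a cell type known for autotaxin, was at 19.1 CPM in control and 48.5 CPM in ferroptotic MEFs. It carried nearly all of the sum of 5 adipocyte markers (17.5 to 20.9 and 44.4 to 53.3 CPM), in which Adipoq reached 0.522 CPM and Plin1 0.28 CPM in ferroptotic MEFs and Lep was at 0. In Hepa1 that sum was at most 0.203 CPM, while Alb was higher in ferroptotic medium as given above. The part of other cell types in the Enpp2 result was not tested.

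**Figure D1:**
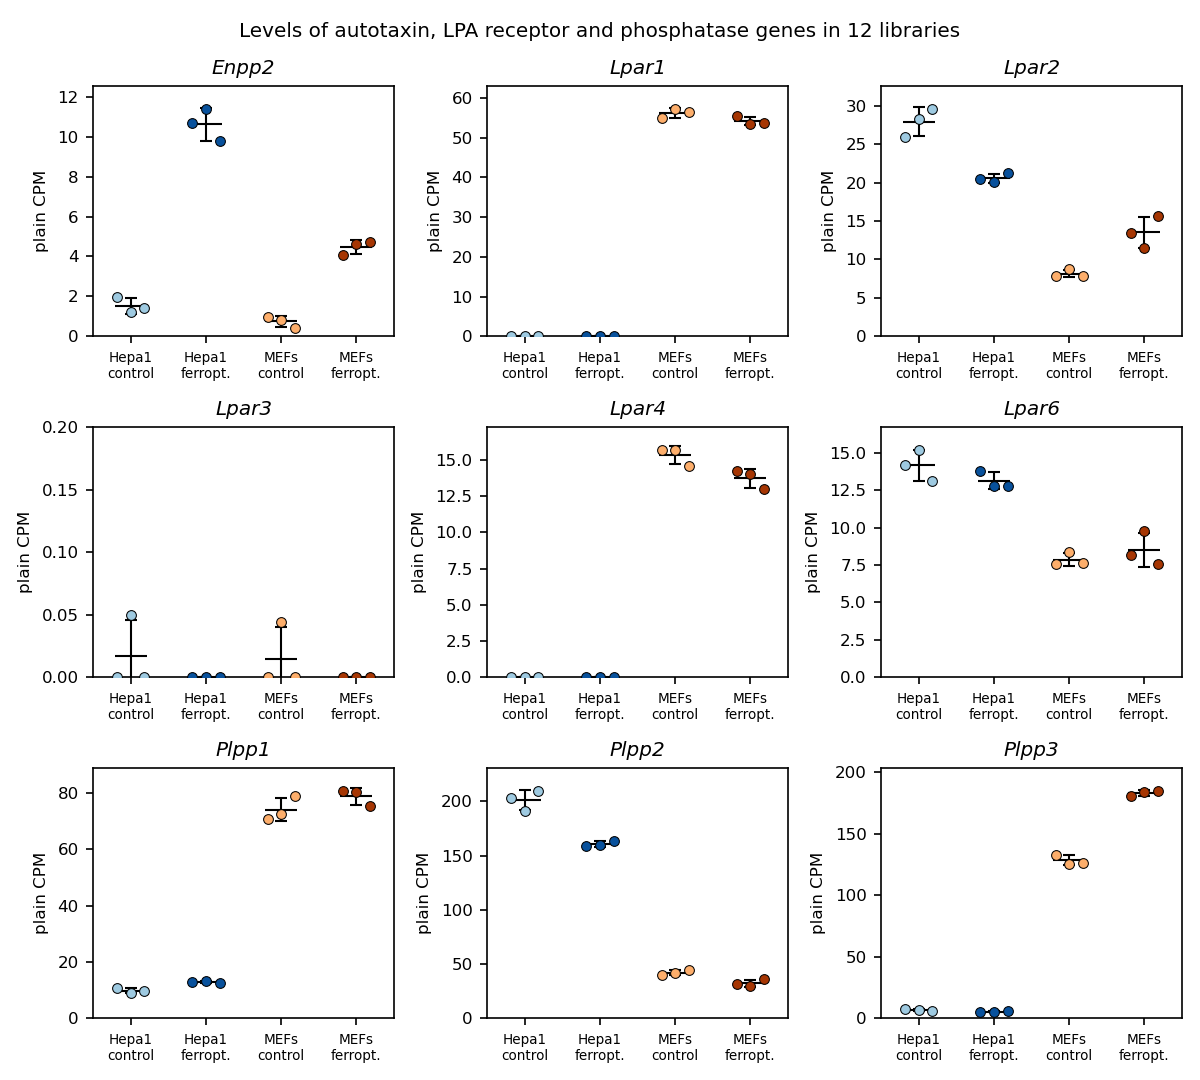
Plain CPM of each of the 9 genes in the 12 libraries, with points for libraries, horizontal bars for group means and error bars for 1 SD (n = 3), on linear axes that start at 0 and differ between panels. Enpp2 was higher in every ferroptotic library than in any control library of the same cell type, Lpar1 and Lpar4 were near 0 in Hepa1, and Lpar2 and Plpp3 moved in opposite directions in the 2 cell types.

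Of the receptor genes, Lpar1 and Lpar4 divided by cell type, while Lpar2 and Lpar6 were read in both. Lpar1 (ENSMUSG00000038668; chromosome 4, 58435255 to 58553898, minus strand), a receptor coupled to Gi, Gq and G12/13 proteins and typical of fibroblasts, was at 54.9, 57.3 and 56.6 CPM in control MEFs and 55.5, 53.5 and 53.8 CPM in ferroptotic MEFs. The MEF libraries of the 2 media overlapped. In Hepa1, 2 reads of Lpar1 were counted over the 3 control libraries and 2 over the 3 ferroptotic libraries. Scaled to library totals, MEFs exceeded Hepa1 by 1660 times in control medium (counting interval 460 to 13700) and 1590 times in ferroptotic medium (440 to 13100). Both ferroptotic Hepa1 reads came from replicate 3, the library that stood apart in its Col1a2 reads. The origin of these reads was not tested.

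Lpar4 (ENSMUSG00000049929; chromosome X, 106920625 to 106933900, plus strand), a receptor of the P2Y-related branch, was also read in MEFs. Its level was 15.7, 15.7 and 14.6 CPM in control medium and 14.2, 14.0 and 13.0 CPM in ferroptotic medium, where every library was below the lowest control library. In Hepa1 it had 0 reads in control medium, so that MEFs were at least 302 times higher (against 3 counts over the group), and 1 read in ferroptotic medium, again from replicate 3. Lpar3 (ENSMUSG00000036832; chromosome 3, 146220963 to 146286186, plus strand) had 1 read in control Hepa1, 1 in control MEFs and 0 in every other library, so it lay under the lower limit in every library.

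Lpar2 (ENSMUSG00000031861; chromosome 8, 69822429 to 69831102, plus strand), a second receptor of the same branch as Lpar1, was read in all libraries. In Hepa1 it was at 25.9, 28.3 and 29.6 CPM in control and 20.4, 20.1 and 21.2 CPM in ferroptotic medium, lower in each. In MEFs it was at 7.87, 8.70 and 7.91 CPM in control and 13.5, 11.5 and 15.6 CPM in ferroptotic medium, higher in each. Its level in control medium was 3.42 times higher in Hepa1 than in MEFs as plain CPM, and 2.32 times higher with TMM scaling. In ferroptotic medium that ratio was 1.51 as plain CPM and 1.05 with TMM scaling over 12 libraries, under which the libraries overlapped. The cell types were thus closer in ferroptotic than in control medium.

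Lpar6 (ENSMUSG00000033446; chromosome 14, 73237895 to 73243294, plus strand), a P2Y-related receptor whose human counterpart is known for a role in hair growth, lies within the Rb1 gene and shares 7.6% of its exon bases with Rb1 exons on the other strand. With no strand setting stated, those reads cannot be assigned. It was at 14.2, 15.2 and 13.1 CPM in control and 13.8, 12.8 and 12.8 CPM in ferroptotic Hepa1. In MEFs it was at 7.58, 8.34 and 7.62 CPM and at 8.18, 9.80 and 7.56 CPM. The libraries of the 2 media overlapped in each cell type. As plain CPM, the Lpar6 level in Hepa1 was 1.80 times that of MEFs in control and 1.55 times in ferroptotic medium. With TMM scaling over 12 libraries these ratios were 1.22 and 1.06. In ferroptotic medium the libraries of the cell types then overlapped.

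On the log2 scale, Lpar2 differed between media by -0.49 in Hepa1 (SE 0.0666) and by 0.66 in MEFs (SE 0.0920). Lpar6 differed by -0.16 in Hepa1 (95% interval -0.32 to 0.01) and by 0.044 in MEFs (-0.16 to 0.24). In MEFs Lpar1 differed by -0.12 (SE 0.0409) and Lpar4 by -0.23 (SE 0.0724). The small MEF values of Lpar1 and Lpar4 depended on the scaling between libraries: with library totals alone they were -0.05 and -0.16. The medium effects of Lpar1, Lpar3 and Lpar4 in Hepa1 and of Lpar3 in MEFs could not be estimated, since these genes did not pass the count filter there.

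The phosphatase genes were read in both cell types and differed in level between them. Plpp2 (ENSMUSG00000052151; chromosome 10, 79526430 to 79533796, minus strand) was at 203, 191 and 209.8 CPM in control Hepa1 and 159, 159.8 and 164 CPM in ferroptotic Hepa1. In MEFs it was at 39.9, 41.8 and 45.0 CPM in control and 31.7, 29.7 and 35.9 CPM in ferroptotic medium. Every ferroptotic library was below every control library of its cell type. The level in Hepa1 was 4.77 times that of MEFs in control and 4.95 times in ferroptotic medium as plain CPM. With TMM scaling over 12 libraries these ratios were 3.23 and 3.41. The log2 change was -0.37 in Hepa1 (SE 0.0379) and -0.45 in MEFs (SE 0.0540). The difference between them was -0.077 (95% interval -0.22 to 0.07), which was likewise not tested.

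Plpp3 (ENSMUSG00000028517; chromosome 4, 105157347 to 105232764, plus strand), known for degrading LPA in the vessel wall, moved in opposite directions. In MEFs it was at 133, 126 and 127 CPM in control and 181, 184 and 185 CPM in ferroptotic medium. In Hepa1 it was at 7.21, 6.91 and 6.28 CPM in control and 5.02, 4.95 and 5.70 CPM in ferroptotic medium. No ferroptotic library overlapped a control library in either cell type. The log2 change was 0.44 in MEFs (SE 0.0300) and -0.43 in Hepa1 (SE 0.116), and without Hepa1 ferroptotic replicate 3 the Hepa1 value was -0.49. MEFs held 18.9 times the Hepa1 level in control medium and 35.0 times in ferroptotic medium as plain CPM. With TMM scaling over 12 libraries these ratios were 27.9 and 50.9.

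Plpp1 (ENSMUSG00000021759; chromosome 13, 112800792 to 112867894, plus strand) was at 10.8, 9.02 and 9.58 CPM in control and 13.0, 13.1 and 12.6 CPM in ferroptotic Hepa1, where it was higher in each library. In MEFs it was at 70.9, 72.5 and 78.8 CPM and at 80.8, 80.2 and 75.3 CPM, and the media overlapped. The log2 change was 0.35 in Hepa1 (SE 0.0879) and 0.021 in MEFs (95% interval -0.06 to 0.10). The MEF value was 0.09 with library totals alone. Plpp1 shares 25.8% of its exon bases with Mtrex on the other strand. With no strand setting stated, reads there may have been left out as ambiguous or may come from that gene.

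Libraries of the 2 media did not overlap for 5 of the 6 genes that passed the count filter in Hepa1 and 5 of 8 in MEFs, where the shares over all genes tested were 63.2% and 60.7%. Because the genes were listed with these levels known, nothing is read from these counts. The median log2 change was -0.26 over the 6 genes in Hepa1 and 0.03 over the 8 in MEFs, beside 0 over all genes tested in each. Without Hepa1 ferroptotic replicate 3 the Hepa1 values were 2.79 for Enpp2, -0.51 for Lpar2, -0.14 for Lpar6, 0.37 for Plpp1 and -0.39 for Plpp2.

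**Figure D2:**
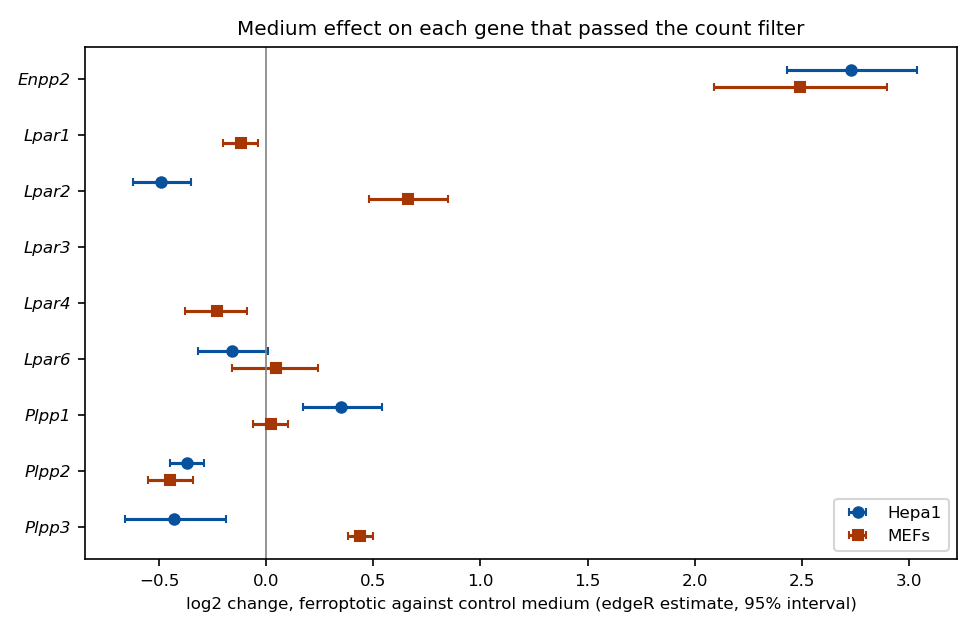
Log2 change between ferroptotic and control medium with its 95% interval, from edgeR, for each gene that passed the count filter, with circles for Hepa1 and squares for MEFs. Enpp2 lies at 2.73 and 2.49, the other genes lie between -0.49 and 0.66, and Lpar2 and Plpp3 lie on opposite sides of 0 in the 2 cell types.

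Levels of different genes were compared as reads per kilobase of exon per M reads (RPKM), which divides CPM by the length of all exons. Summed over Lpar1 to Lpar6, with Lpar5 included, receptor RPKM was 7.45 ± 0.318 (SD, n = 3) in control Hepa1, 6.03 ± 0.139 in ferroptotic Hepa1, 19.6 ± 0.435 in control MEFs and 19.8 ± 0.323 in ferroptotic MEFs. Lpar2 made up 64.2% ± 2.83 (SD, n = 3) of the sum in control Hepa1 and 58.4% ± 1.52 in ferroptotic Hepa1, and Lpar6 nearly all of the rest (35.3% and 40.3%). In MEFs Lpar1 led with 66.9% ± 0.865 in control and 63.8% ± 0.273 in ferroptotic medium, followed by Lpar4 with 18.5% and 16.3%. The share of Lpar2 in MEFs was 7.12% ± 0.251 in control and 11.7% ± 1.76 in ferroptotic medium, and that of Lpar6 was 7.41% and 7.96%. In control MEFs, Lpar6 and Lpar2 did not differ beyond their spread (1.45 and 1.40 RPKM), whereas in ferroptotic MEFs Lpar2 (2.32 RPKM) was above Lpar6 (1.58 RPKM) in every library.

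The 3 phosphatase genes summed to 129.6 ± 5.86 RPKM in control Hepa1, 106 ± 1.61 in ferroptotic Hepa1, 109 ± 3.28 in control MEFs and 123 ± 0.715 in ferroptotic MEFs. TMM scaling over 12 libraries multiplies CPM by 0.833 to 0.847 in control Hepa1 and by 1.23 to 1.25 in control MEFs. The order of the cell types in control medium is then reversed. Plpp2 made up 94.0% and 91.5% of the sum in control and ferroptotic Hepa1. In MEFs the 3 genes were closer. Plpp1 and Plpp3 held 39.0% and 37.5% in control MEFs, where their libraries overlapped (42.3 and 40.7 RPKM). In ferroptotic MEFs Plpp3 held 47.3% ± 0.534, Plpp1 36.7% ± 1.58 and Plpp2 16.0% ± 1.49, and Plpp3 (58.0 RPKM) was above Plpp1 (45.0 RPKM) in every library.

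**Figure D3:**
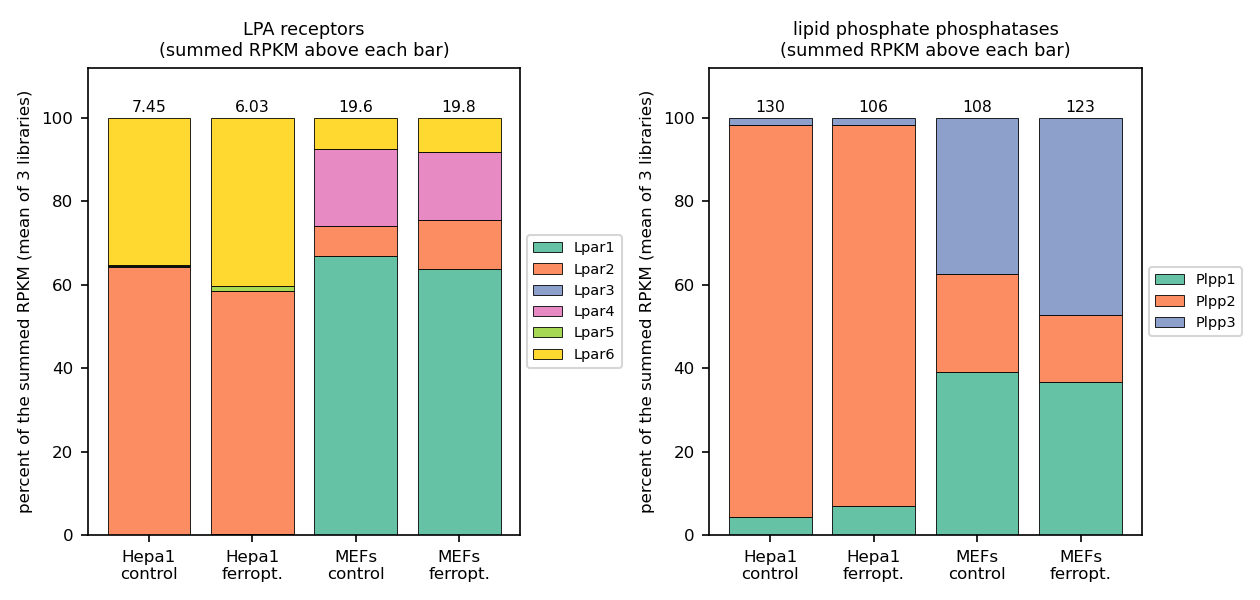
Share of each gene in the summed RPKM of the LPA receptor genes (left) and of the phosphatase genes (right) in the 4 groups, as means of 3 libraries in percent, with the summed RPKM printed above each bar. Hepa1 bars consist mainly of Lpar2 with Lpar6 and of Plpp2, and MEF bars mainly of Lpar1 with Lpar4 and of Plpp1 with Plpp3.

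Ordered by RPKM, Hepa1 in control medium ran Plpp2 (122), Plpp1 (5.59), Lpar2 (4.78), Lpar6 (2.63), Plpp3 (2.15) and Enpp2 (0.267), each apart from the next, with Lpar1, Lpar3 and Lpar4 at or below 0.00795. In ferroptotic Hepa1, Enpp2 (1.84) passed Plpp3 (1.65), although their libraries overlapped, and the other genes above the limit kept their order. In MEFs Enpp2 was the lowest gene read above the limit, at 0.130 RPKM in control and 0.775 RPKM in ferroptotic medium. The position of Enpp2 depended on the length used. Its transcript with the longest coding sequence is shorter than the union of its exons, and by that length it was at 3.87 RPKM in ferroptotic Hepa1, above Lpar2 (3.55), and at 1.63 RPKM in ferroptotic MEFs, near Lpar6 (1.58), with overlapping libraries in each case.

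By the root mean square difference between log2(CPM + 0.5) profiles over the 12 libraries, each centred on its own mean, the protein-coding genes most like Enpp2 among 12390 were Pole (0.524), Rad54l (0.529), Plxdc1 (0.551), Steap4 (0.576) and Mxd3 (0.585). Pole, the closest, was at 5.82 and 16.4 CPM in control and ferroptotic Hepa1 and at 2.89 and 6.65 CPM in MEFs, smaller rises than those of Enpp2. Steap4 was at 1.96 and 12.1 CPM in control and ferroptotic Hepa1 and at 1.62 and 14.3 CPM in MEFs. Unlike Enpp2, Steap4 was higher in ferroptotic MEFs than in ferroptotic Hepa1. The genes most like Lpar1 were Pcdh19 (0.0639), Spry2 (0.0652), Tspan6 (0.0684), Gprc5c (0.0867) and Cspg4 (0.0895). Each of these had at most 0.117 CPM on average in Hepa1 and between 49.0 and 60.4 CPM in MEFs. Genes chosen by this measure as close to Lpar1 had to lie near its levels, so nothing further is read from them.

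The other genes of LPA metabolism and signalling were taken from 6 lists that hold 74 genes. In Hepa1, 47 were measured, of which 15 rose and 20 fell in ferroptotic medium (74.5%, against 58.1% of all genes tested, 29.3% higher and 28.8% lower), with a median log2 change of -0.07. In MEFs 57 were measured, of which 17 rose and 26 fell (75.4%, against 55.0% of all genes tested, 27.8% higher and 27.2% lower), with a median of -0.08. A difference between the cell types was called for 32 of the 46 genes that passed the count filter in each (69.6%, against 54.0% of all 12042 such genes). The median over all genes tested was 0 in each cell type. The lists were chosen with earlier results of these data known, so nothing is read from these shares or from those of single lists below. Calls were made with edgeR's quasi-likelihood test, with p-values adjusted over all genes tested. Without Hepa1 ferroptotic replicate 3, 33 genes were called in Hepa1 in place of 35. Several markers of other cell types moved with the medium. The sum of 6 macrophage markers in Hepa1 was 43.2 to 48.8 CPM in control and 19.9 to 23.8 CPM in ferroptotic medium, with Ptprc at 0. Cd68 carried most of that difference (24.8 and 3.60 CPM). Cd14 (15.4 and 10.5 CPM) and Csf1r (3.49 and 2.46 CPM) were also lower in ferroptotic medium. Adgre1 (0.0336 and 2.02 CPM) and Lyz2 (1.59 and 3.45 CPM) were higher. The sum of 5 endothelial markers in MEFs, 3.75 to 4.57 and 6.24 to 8.38 CPM, was nearly all Tek (4.00 and 7.12 CPM), with Cdh5 and Tie1 at 0. Their part in the list counts was not tested.

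None of 3 receptor genes outside the 9 (Lpar5, Gpr35 and P2ry10) passed the count filter, and Lpar5 had at most 3 reads in any library. The ENPP family, to which autotaxin belongs, holds other ectoenzymes that cleave nucleotides or phospholipids. In Hepa1 only Enpp4 of 6 was measured, with a log2 change of -0.10 (adjusted p = 0.151, edgeR). In MEFs 4 were measured, of which 2 rose and 2 fell, with log2 changes from -0.55 (Enpp3) to 0.35 (Enpp5). These calls are 100.0% of the measured genes, against 55.0% of all genes tested. Enpp3 had 132 and 97 reads over the control and ferroptotic MEF libraries. Its libraries of the 2 media overlapped (1.43 to 2.34 CPM and 1.15 to 1.69 CPM). Enpp5 rose by 0.35 on the log2 scale (106 ± 1.32 to 142 ± 2.41 CPM, SD, n = 3; edgeR adjusted p = 3.38e-14). Enpp4 fell by 0.27 (edgeR adjusted p = 3.91e-06). Enpp1, which makes pyrophosphate from ATP, rose by 0.15 (edgeR adjusted p = 0.0111), a call lost with DESeq2's Wald test (adjusted p = 0.0596) and without MEF ferroptotic replicate 2 (edgeR adjusted p = 0.21).

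Among 15 genes that make LPA or its precursors, 4 rose and 5 fell of 12 measured in Hepa1, and 1 rose and 6 fell of 11 in MEFs. These calls are 75.0% and 63.6% of the measured genes, against 58.1% and 55.0% of all genes tested. Pla2g4a, the cytosolic phospholipase A2 that releases lysophospholipids and arachidonic acid, fell in both cell types. It went from 99.9 ± 2.73 to 31.9 ± 2.13 CPM (SD, n = 3) in Hepa1, so that its log2 change was -1.69 (SE 0.0505, edgeR adjusted p = 4.64e-21). In MEFs it went from 81.6 ± 0.865 to 38.7 ± 1.16 CPM, so that its log2 change was -1.15 (SE 0.0406, edgeR adjusted p = 3.22e-30). The fall was larger in Hepa1, by 0.55 (edgeR interaction, adjusted p = 2.34e-09). Gpam, the mitochondrial enzyme that makes LPA inside the cell as the first step of glycerolipid synthesis, went from 17.9 ± 0.269 to 139 ± 9.73 CPM in Hepa1 (log2 change 2.91, edgeR adjusted p = 4.72e-25). In MEFs Gpam was at 50.7 ± 3.70 and 48.5 ± 0.443 CPM, and the MEF response was below that of Hepa1 by 3.04 on the log2 scale (interaction -3.04, edgeR adjusted p = 6.68e-32). Gdpd1, a lysophospholipase D inside the cell, fell by 0.44 in Hepa1, and Pla2g6 and Gpat3 fell by 0.28 and 0.50 in MEFs. Gpat3 shares 30.0% of its exon bases with 4930458D05Rik on the other strand and 7.4% with Gm42987 on the same strand.

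Among 19 genes of LPA and phosphatidic acid turnover, 4 rose and 6 fell of 13 measured in Hepa1, and 2 rose and 7 fell of 15 in MEFs. These are 76.9% and 60.0%, against 58.1% and 55.0% of all genes tested. The lipins, which dephosphorylate phosphatidic acid, differed among themselves. Lpin2 went from 124 ± 3.54 to 46.7 ± 0.961 CPM (SD, n = 3) in Hepa1, a log2 change of -1.45 (edgeR adjusted p = 4.45e-21). Lpin3 fell by 1.18 in Hepa1 (edgeR adjusted p = 2.21e-08). Lpin1 rose by 0.74 on the log2 scale in MEFs, from 34.5 ± 1.56 to 60.3 ± 3.34 CPM (edgeR adjusted p = 1.01e-19). Agpat3, an enzyme that acylates LPA to phosphatidic acid, rose by 0.31 in Hepa1, while Agpat4 of the same family and Plppr2, a relative of the phosphatases, fell by 0.33 and 0.32 in MEFs.

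The axis of sphingosine 1-phosphate (S1P), a related lipid mediator that shares the phosphatases, was listed with 12 genes. Of 5 measured in Hepa1, 2 rose and 3 fell, and of 9 measured in MEFs, 4 rose and 5 fell, so that each measured gene was called, against 58.1% and 55.0% of all genes tested. The receptor gene S1pr1 went from 19.1 ± 2.27 to 107 ± 4.70 CPM (SD, n = 3) in Hepa1 (log2 change 2.44, edgeR adjusted p = 1.03e-22). In MEFs S1pr1 went from 21.2 ± 1.58 to 15.7 ± 1.42 CPM, a log2 change of -0.51 (edgeR adjusted p = 1.22e-08). The difference between the responses of S1pr1 was -2.94 (edgeR interaction, adjusted p = 4.71e-28). The S1P lyase Sgpl1 and the kinase Sphk2 fell in Hepa1 by 0.43 and 0.41. Sphk2 shares 21.9% of its exon bases with Dbp and Rpl18 on the other strand. In MEFs the kinase Sphk1 and the phosphatase Sgpp1 fell by 0.76 and 0.44, and the receptor S1pr3 rose by 0.44 on the log2 scale.

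Among 19 genes of G protein signalling downstream of LPA receptors, 5 rose and 6 fell of 16 measured in Hepa1, and 8 rose and 6 fell of 18 in MEFs. These are 68.8% and 77.8%, against 58.1% and 55.0% of all genes tested. Plcb1, a phospholipase C downstream of Gq, rose in both cell types, by 0.67 on the log2 scale in Hepa1 (edgeR adjusted p = 3.02e-11) and by 0.83 in MEFs (edgeR adjusted p = 7.51e-11). Rhoc and the G protein gene Gna13 fell by 0.50 and 0.39 in Hepa1. In MEFs the kinase gene Rock2 fell by 0.52 and Gnai1 rose by 0.61 on the log2 scale, while Rock2 differed by -0.008 in Hepa1. Of the 16 genes of this list that passed the count filter in each cell type, 14 were called for a difference between them, against 54.0% of all such genes.

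**Figure D4:**
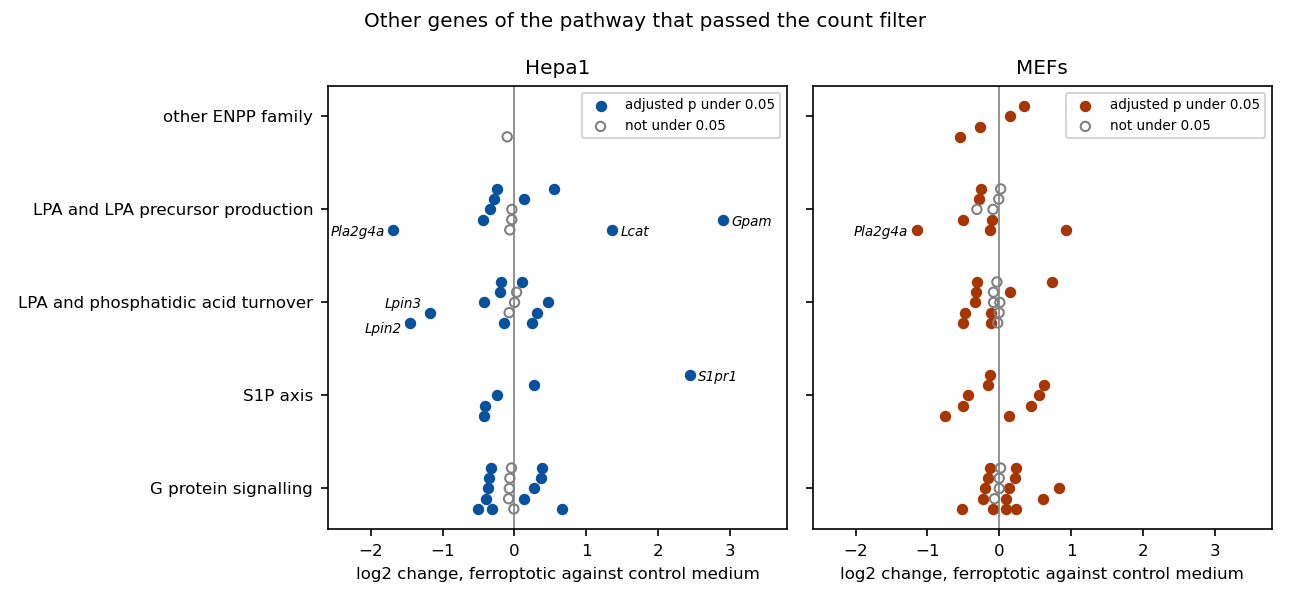
Log2 change between ferroptotic and control medium for each measured gene of the other pathway lists, in Hepa1 (left) and MEFs (right), with filled points for an adjusted p under 0.05 (edgeR) and names for genes past 1 on the log2 scale. Gpam, S1pr1 and Lcat are higher and Pla2g4a, Lpin2 and Lpin3 lower in Hepa1 by more than 1, and Pla2g4a is the only gene past 1 in MEFs. The Hepa1 value of Lcat (95% interval 0.67 to 2.06) rests on few reads, 21 over the control and 56 over the ferroptotic libraries.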

How the data were processed

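RNA of Hepa1 cells and Bach1-/- MEFs was sequenced in 12 libraries. Per the labels' protocols, each was built with the NEBNext Ultra II RNA kit, for which no strand-specific variant is named. The deposited values are raw read counts per Ensembl gene. The submitters' processing notes list HTSeq 0.9.1, STAR 2.7.10a, Trimmomatic 0.39 and FastQC 0.11.9, with build GRCm38 (mm10). The strand setting and annotation release were not given in the sources used here. Left out were the 5 HTSeq summary lines, with 2.00 to 2.58% of reads on no gene and 3.66 to 4.03% ambiguous. GENCODE M21 named 55227 of 55487 gene identifiers. Groups came from the sample titles.

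Plain CPM and RPKM (union of exons) were computed from the counts. Fits used edgeR 4.0.16 in R 4.3.3 (filterByExpr, TMM, quasi-likelihood F-test, Benjamini-Hochberg adjusted p under 0.05) within each cell type and over 12 libraries for the difference of responses, which was counted for genes that passed the filter in each cell type, with standard errors from the log2 change and F. The scripts were tested on simulated data. Replicates differed beyond sampling noise in a chi-square test of their counts. Floors (3 counts) and 95% counting intervals cover counting error only. Alternatives were DESeq2 1.42.0 (size factors, Wald test), limma-voom 3.58.1, library totals alone, other count filters, a replicate block, leaving out each library and, chosen after seeing the data, another transcript length.

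The genes, lists and tests were chosen with earlier results of these data known, and a listed gene is not reported here. Named were the 9 genes, up to 3 called genes with the smallest adjusted p per list and comparison, and the 5 protein-coding genes closest in profile to Enpp2 and to Lpar1.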

Additional observations from a re-analysis of the deposited data

Results flagged for a closer look

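The responses of Lpar2 and Plpp3 went in opposite directions in the 2 cell types in every library, and the difference, MEF minus Hepa1, was 1.15 and 0.87 on the log2 scale. The genes were listed with these levels known, so no test result is given for this difference, and it counts as not tested. Without Hepa1 ferroptotic replicate 3 the values were 1.18 and 0.94.

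For other pathway genes the difference between the responses was called by the edgeR interaction test (adjusted p under 0.05). The MEF response was above that of Hepa1 for Lpin2 (1.33), Lpin1 (0.62), Pla2g4a (0.55), Arhgef12 (0.53), S1pr2 (0.38) and Pld2 (0.27). It was below that of Hepa1 for Gpam (-3.04), S1pr1 (-2.94), Sgpp1 (-0.72), Rock2 (-0.51), Gnai2 (-0.47) and Agpat3 (-0.33). The value for Enpp3, -1.98, is given without a direction, since Enpp3 did not pass the count filter in Hepa1, with 11 and 31 reads over the control and ferroptotic libraries, and entered the fit through MEFs.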

How the results depend on the processing

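The counts of genes called (7656 in Hepa1, 7943 in MEFs and 6911 of 15627 for the difference), over all genes and over the pathway lists, stayed within 1.5 times of the reported value under each alternative run. No log2 change of a called pathway gene reversed, and Enpp2 ranged from 2.58 to 2.95 in Hepa1 and from 2.22 to 2.72 in MEFs. Over the alternatives Lpar6 (-0.07 to 0.13) and Plpp1 (-0.02 to 0.09) changed sign in MEFs, where their reported 95% intervals include 0. With library totals alone the median of all genes shifted by 0.0463 in Hepa1 and 0.0687 in MEFs. The share of calls that were higher then went from 50.5% to 58.8% in Hepa1 and from 50.5% to 63.8% in MEFs. Of 36 group levels, 26 moved by more than 1 SD under TMM scaling over 12 libraries, which multiplies CPM by 0.805 to 0.847 in Hepa1 and by 1.18 to 1.25 in MEFs. Same-numbered replicates correlated at -0.0143 to 0.0366 in their deviations, so the numbers were not taken as pairs, and the library with the best match had the same number in 1 of 3 cases in each cell type. With the replicate block, 7437 genes were called in Hepa1, 8073 in MEFs and 6954 for the difference. Depth limits Lpar3 everywhere and Lpar1 and Lpar4 in Hepa1, which had at most 2 reads per library.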
